A study of Mus musculus with 6 samples.

Results

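The 8 genes described here, Rgs1, Rgs2, Rgs3, Rgs10, Rgs14, Rgs16, Rgs18 and Rgs19, encode regulators of G-protein signalling (RGS proteins), and they were chosen by name from the gene annotation of a mouse microarray. They were read by 13 of its 55681 non-control probes, and each was one of the 19573 features that could be tested. RNA came from bone marrow-derived macrophages of C57BL/6 mice, grown for 7 days with L929-conditioned medium as the source of M-CSF, the growth factor of macrophages. One group of 3 samples was exposed to 100 µM ADP for 6 h and the other group of 3 was the 6 h control, which differed by the ADP alone as far as the labels say. Per the submitters, the experiments were independent and used a different donor each, and every sample was hybridised to a one-colour array of its own. The labels give no sex or age and do not say whether the control cells received a vehicle.

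An RGS protein ends the message of a G-protein-coupled receptor. An activated receptor loads GTP onto the alpha subunit of its G protein, which then parts from the beta-gamma pair, and the RGS domain speeds the hydrolysis of that GTP so that the parts rejoin. Macrophages sense ADP through receptors of this class: P2ry1 couples to Gq, which activates phospholipase C beta, while P2ry12 and P2ry13 couple to Gi, which inhibits adenylyl cyclase. Most RGS proteins act on Gi, Gq or both, and the comparison shows what the RNA of 8 of them did in macrophages exposed to ADP.

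None of the 8 genes passed the test on all arrays at an adjusted p under 0.05 (limma, Benjamini-Hochberg adjustment over 19573 features), and 0% of all features did. At an unadjusted p under 0.05, 1 of the 8, Rgs18, was lower with ADP, beside 6.18% of all features that were lower at that threshold. Rgs18 read 1.41-fold lower in ADP-exposed cells, and it was the only one of the 8 whose ADP and control arrays did not overlap, beside 9.72% of all features that were lower without overlap. Rgs2, Rgs10 and Rgs14 read lower on every ADP array than on each control array of the same slide, and so did Rgs3 by smaller amounts. With Rgs18 these made 5 of the 8, beside 23.4% of all features. Slide 2 held a single control, control 3. Rgs1 and Rgs19 differed by less than the spread between samples, and Rgs16 was near background with 1 high ADP array.

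The arrays lay on 2 slides, each scanned apart and each holding both groups. Slide 1 held ADP 1 with controls 1 and 2, and slide 2 held ADP 2 and 3 with control 3. Between 50.3% and 51.9% of the 59305 non-control spots of an array were well above background, none reached saturation, and the arrays' 75th percentiles of signal ran from 455 to 549. All 9 macrophage markers examined were well above background on all 6 arrays, with a summed signal of 1594 to 2069 times the array's 75th percentile with ADP, against 1398 to 1781 in controls. The sum weighs each probe by its own brightness and was higher on slide 2 in both groups. Of the 9 markers, 6 averaged higher with ADP and 3 lower, beside 49.2% of all features that were lower.

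The probes that read the 8 genes are 60-base oligonucleotides, and their positions below are on mouse build mm9 as the files give them. The files do not say whether a probe lies in an exon, an intron or a UTR. Rgs2, Rgs1 and Rgs18 lie near each other on chromosome 1, with probes at chr1:145848830-145848889, chr1:146091962-146092021 and chr1:146600137-146600196, all on the minus strand. Rgs16 is farther along that chromosome, at chr1:155592244-155592303 on the plus strand. The Rgs10 probe is at chr7:135517256-135517315 on the minus strand and the Rgs14 probe at chr13:55485762-55485821 on the plus strand. The probe that stands for Rgs3, A_55_P2027102, is at chr4:62363993-62364052 on the plus strand, and that of Rgs19, A_55_P2078403, is at chr2:181423128-181423187 on the minus strand.

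The family resemblance can be read in the probes themselves. One probe of Rgs2, A_55_P2109857, and one of Rgs3, A_55_P2027107 at chr4:62363208-62363267, are shown whole because 35 of 59 aligned bases, or 59.3%, are identical. As background and not from the files, both stretches belong to the part that encodes the RGS domain. Capitals mark the shared bases. No other pair of an Rgs2 and an Rgs3 probe shared more than 23 bases in such an ungapped alignment, and probes of the other genes were not aligned.
Rgs2: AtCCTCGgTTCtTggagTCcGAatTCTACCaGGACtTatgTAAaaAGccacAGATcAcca
Rgs3: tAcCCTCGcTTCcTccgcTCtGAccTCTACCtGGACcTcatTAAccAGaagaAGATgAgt
The first 30 bases of the probes of the other genes that the comparisons turn on are given next. They are in lower case throughout, since shared bases were not sought for them.
Rgs18: tgcttgaacgatgaagatggcatactttca
Rgs10: gaccttccctctggatatgtgtattttatt
Rgs14: ggaggtgggcctagttccttggcataagca
Rgs16: gagagaactcttttaagtataatattgtgt

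Signals below are the deposited processed signals. Levels are log2 of the signal over the array's 75th percentile, and differences are ADP minus control in log2 levels with their standard error. A level can be compared between arrays for one probe, but not between probes. Each within-slide difference is a mean of the slide's ADP arrays minus its control arrays, and the slide was also fitted as a block.

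**Figure D1:**
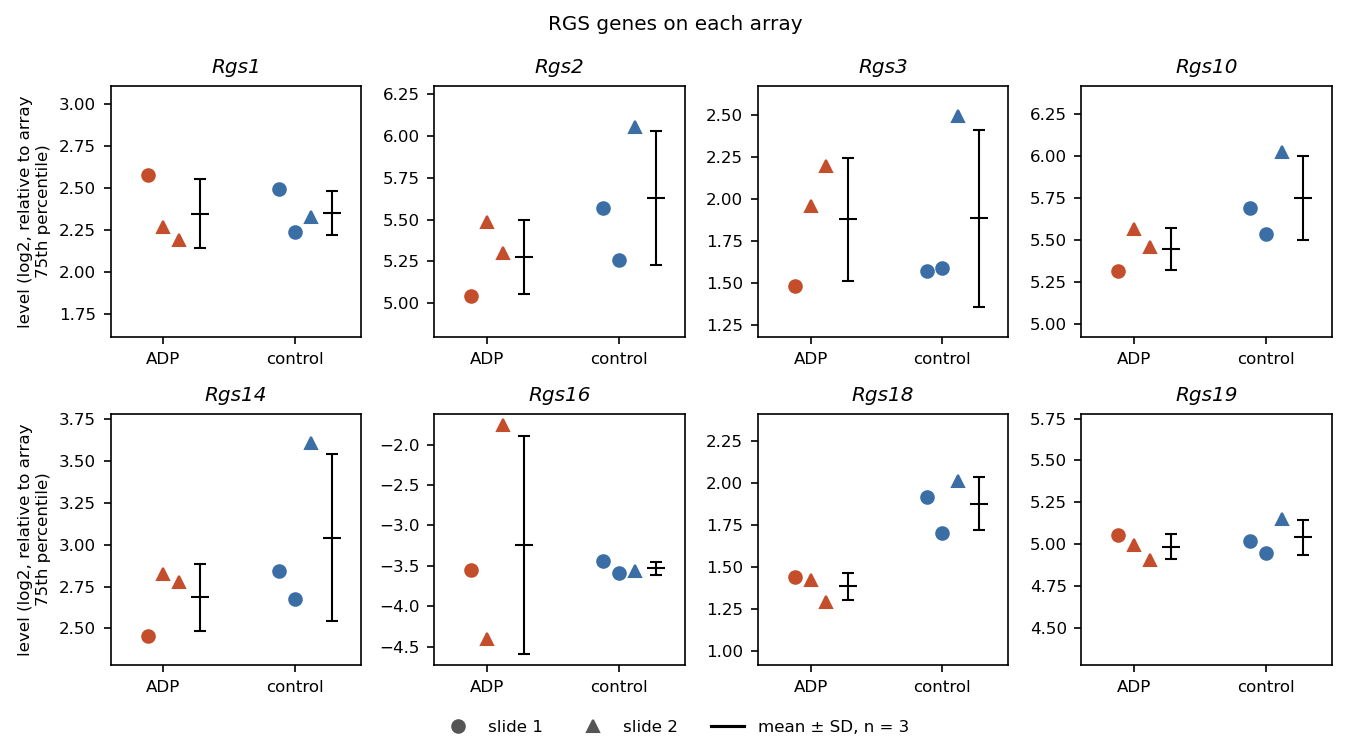
Level of each RGS gene (y axis, log2 relative to the array's 75th percentile) on the 3 ADP arrays (left, orange) and the 3 control arrays (right, blue), with circles for slide 1, triangles for slide 2 and the mean ± SD of each group (n = 3) beside the points. Rgs18 is the one gene whose groups do not overlap, with ADP arrays at 1.29 to 1.44 and control arrays at 1.71 to 2.02, and control 3 is the highest of all 6 arrays for Rgs2, Rgs3, Rgs10, Rgs14, Rgs18 and Rgs19.

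Rgs18 is a small RGS protein of blood cells, best known from platelets and megakaryocytes, where it restrains Gi and Gq signalling, including that of ADP receptors. Its signal was 1235, 1459 and 1346 on ADP arrays 1 to 3, against 1717, 1514 and 2218 on control arrays 1 to 3. Every ADP array was below every control array. The level averaged 1.39 ± 0.08 with ADP and 1.88 ± 0.16 in controls (SD, n = 3 each). The difference was -0.49 ± 0.12, with a 95% interval from -0.78 to -0.20 (limma, adjusted p = 0.261). Groups that did not overlap and were lower with ADP made up 9.72% of all features, and 9.82% of features differed by at least as much as Rgs18 in either direction. The difference was -0.37 within slide 1 and -0.66 within slide 2, and leaving out 1 array at a time it stayed between -0.58 and -0.43.

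Since Rgs18 is a gene of platelets and megakaryocytes, their markers are given beside it. Of 10 such markers, 5 could be tested and Gp1ba, Gp5 and Gp6, subunits of platelet adhesion receptors, were not well above background on any array. The 5 had a median difference of 0.24, or 0.41 with the slide as a block, and 1 of them was below 0, beside 49.2% of all features. Treml1, a receptor of platelet granules, differed most, by 0.78 ± 0.20 (limma, adjusted p = 0.263). Its signal was 3704, 3956 and 5380 on ADP arrays 1 to 3, against 2205, 2848 and 2115 on control arrays 1 to 3. The groups of Treml1 did not overlap, beside 9.67% of all features that were higher without overlap. With the slide as a block and trended, robust variances its adjusted p in limma was 0.0288, beside 4.52% of all features called higher. All 10 markers together summed to 190 to 220 times the array's 75th percentile with ADP, against 168 to 193 in controls. That sum weighs each probe by its own brightness, and most of it is the marker Pf4, which differed by 0.17 ± 0.12 with overlapping groups. The part of such cells in the Rgs18 difference was not tested. In bulk RNA, fewer cells of a type and less RNA per cell cannot be told apart.

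The 5 named genes whose levels followed Rgs18 most closely over the 6 arrays were Atad5, Lacc1, Ctdspl, Dnajc30 and Pms1. Likeness was the root mean square difference of log2 levels, each gene centred on its own mean, and it was 0.039 to 0.048 for these 5 beside a median of 0.31 over the 12583 genes compared. Their own differences between ADP and control, which the choice by likeness fixes near that of Rgs18, lay between -0.53 and -0.45. Among the 8 RGS genes, Rgs10 was nearest to Rgs18 at 0.15, with 6.00% of the compared genes nearer, and Rgs16 was farthest at 0.91.

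Rgs2 acts with some selectivity on Gq alpha and is known as a gene that many hormones and cAMP induce. The signal of its probe in the RGS domain was 14980, 24410 and 21682 on ADP arrays 1 to 3, against 21600, 17790 and 36470 on control arrays 1 to 3. The groups overlapped, since control 2 lay below ADP 2 and ADP 3, but on each slide the ADP arrays were the lower ones. The level averaged 5.28 ± 0.22 with ADP and 5.63 ± 0.40 in controls (SD, n = 3 each). The difference was -0.35 ± 0.23 (limma, adjusted p = 0.605), and within the slides it was -0.37 and -0.66. With the slide as a block it was -0.52 ± 0.13 (limma, adjusted p = 0.0970), and without control 3 and without a block it was -0.14. Leaving out control 3 leaves every control on slide 1 while 2 of the 3 ADP arrays are on slide 2, so such values, without a block here and for the genes below, hold the slide as well.

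The other Rgs2 probe, A_52_P378968 at chr1:145847227-145847286, showed a smaller difference. Its signal was 174, 174 and 184 on ADP arrays 1 to 3, against 165, 172 and 203 on control arrays 1 to 3. The groups overlapped here as well, with ADP 1 the highest level of the 6. The difference was -0.10 ± 0.11 in the fit over 26585 probes and -0.06 with the slide as a block. Whether the probes of Rgs2 read different transcripts was not tested.

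Rgs10 and Rgs14 act on Gi alpha. Rgs10 is abundant in macrophages and microglia and is known for restraining inflammatory activation, while Rgs14 also binds Ras-family GTPases. The Rgs10 signal was 18104, 25757 and 24157 on ADP arrays 1 to 3, against 23511, 21531 and 35721 on control arrays 1 to 3. Only control 2 lay among the ADP levels, just under that of ADP 2. Rgs10 averaged a level of 5.45 ± 0.12 with ADP and 5.75 ± 0.25 in controls (SD, n = 3 each). The difference was -0.30 ± 0.16 (limma, adjusted p = 0.493), with -0.30 and -0.51 within the slides and -0.17 without control 3 and without a block. Fitted with the slide as a block, it was -0.41 ± 0.10 (limma, adjusted p = 0.0869).

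The Rgs14 signal was 2495, 3856 and 3774 on ADP arrays 1 to 3, against 3262, 2971 and 6697 on control arrays 1 to 3. Control 3 stood well above the other arrays, and control 2 was below ADP 2 and ADP 3. The level averaged 2.69 ± 0.20 with ADP and 3.04 ± 0.50 in controls (SD, n = 3 each), a difference of -0.36 ± 0.26 (limma, adjusted p = 0.653). Within the slides it was -0.30 and -0.81. Without control 3 and without a block it was -0.07. Fitted with the slide as a block, it was -0.56 ± 0.14 (limma, adjusted p = 0.0897).

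**Figure D2:**
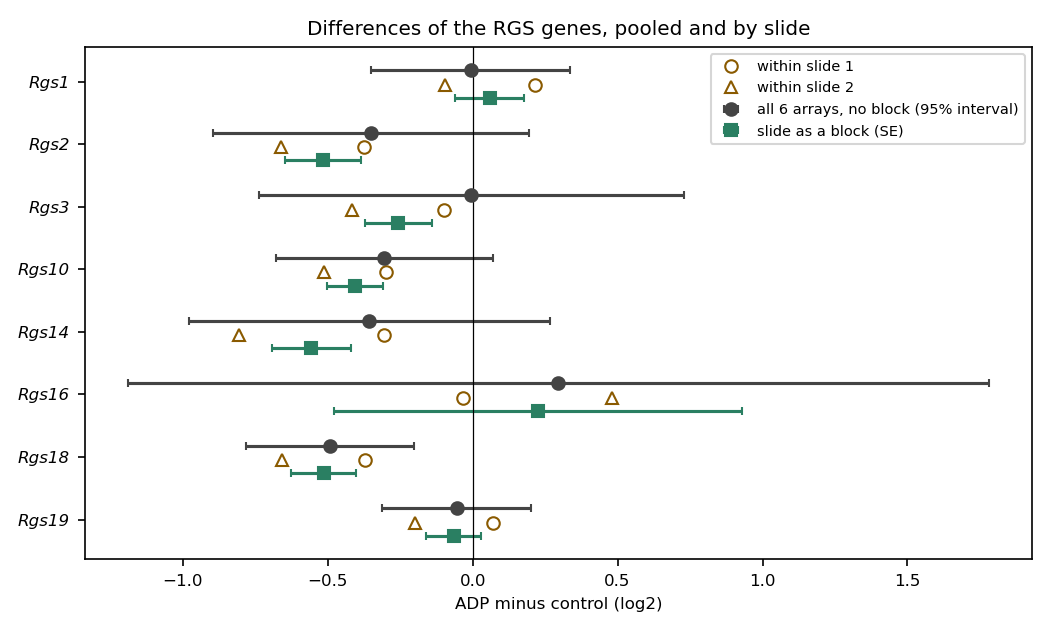
ADP minus control difference of each RGS gene (x axis, log2) on all 6 arrays with its 95% interval (filled circles), within slide 1 (open circles), within slide 2 (open triangles) and with the slide as a block with its standard error (squares). Rgs2, Rgs3, Rgs10, Rgs14 and Rgs18 are below 0 within both slides, and the 95% interval on all arrays leaves out 0 for Rgs18 alone.

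Taking the 8 genes side by side, 7 had a difference below 0 on all arrays, beside 49.2% of all features, and 6 did so with the slide as a block, beside 51.7%. Of the 7, Rgs1 at -0.0061 ± 0.14, Rgs3 at -0.0048 ± 0.31 and Rgs19 at -0.05 ± 0.11 were below 0 by less than their standard error. The median difference of the 8 was -0.18 and the median over all features was 0.00. Without control 3 the median of the 8 was -0.05. With the slide as a block the medians were -0.33 for the 8 genes and -0.01 for all features. On both slides, every ADP array was below all controls of its slide for 5 of the 8 genes, beside 23.4% of all features, and 0 of the 8 were above them on both, beside 20.2%. Slide 1 held ADP 1 as its only ADP array. On slide 2 the only control was control 3, the highest of all arrays for each of these 5 genes.

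With the slide as a block, 0 of the 8 genes and 0% of all features passed an adjusted p under 0.05, and 691 features shared the smallest adjusted p of 0.0734. At an unadjusted p under 0.05 that fit had Rgs2, Rgs10, Rgs14 and Rgs18 lower, 4 of the 8, beside 13.5% of all features. When the variances were also moderated with an intensity trend and robustly, the same 4 of the 8 passed an adjusted p under 0.05 as lower, beside 5.38% of all features. Their adjusted p-values in that limma fit were 0.0282 for Rgs2, 0.0224 for Rgs10, 0.0275 for Rgs14 and 0.0249 for Rgs18.

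Rgs3 is a larger family member with several transcripts, and it acts on Gi and Gq. The signal of the probe that stands for it was 1269, 2117 and 2523 on ADP arrays 1 to 3, against 1350, 1395 and 3091 on control arrays 1 to 3. The arrays parted by slide rather than by group, with all 3 arrays of slide 2 above all 3 of slide 1. The level averaged 1.88 ± 0.37 with ADP and 1.88 ± 0.53 in controls (SD, n = 3 each), and the difference was -0.0048 ± 0.31 (limma, adjusted p = 0.997). Within the slides it was -0.10 and -0.42, and with the slide as a block it was -0.26 ± 0.12 (limma, adjusted p = 0.249). Without control 3 and without a block it was 0.30.

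The Rgs3 probe in the RGS domain had signals of 328, 478 and 480 on ADP arrays 1 to 3, against 356, 301 and 527 on control arrays 1 to 3. It showed the same parting by slide, and its difference was 0.06 ± 0.17 without a block and -0.06 with the slide as a block. A further probe, A_55_P2027117 at chr4:62320777-62320836, reads another Rgs3 transcript of the annotation. Its signal was 99.9, 15.9 and 19.1 on ADP arrays 1 to 3, against 9.9, 10.4 and 14.0 on control arrays 1 to 3. It was well above background on 1 of 3 ADP arrays and 0 of 3 control arrays, so it was not tested and has no fold.

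Rgs16 is an inducible RGS protein that acts on Gi and Gq and follows activating stimuli in lymphocytes and myeloid cells. Its signal was 38.8, 25.8 and 162 on ADP arrays 1 to 3, against 41.9, 38.4 and 46.5 on control arrays 1 to 3. ADP 3 was above all controls, ADP 2 was the lowest of the 6, and ADP 1 lay between controls 1 and 2. The spot was well above background on all 6 arrays, where the lowest such signals were 16.6 to 23.3. The level averaged -3.24 ± 1.35 with ADP and -3.53 ± 0.08 in controls (SD, n = 3 each). The difference was 0.30 ± 0.62, with a 95% interval from -1.19 to 1.78 (limma, adjusted p = 0.876), and without ADP 3 it was -0.44. Within slide 1 it was -0.03 and within slide 2 it was 0.48, where the ADP arrays lay on both sides of the control.

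Rgs1 restrains the response of lymphocytes and macrophages to chemokines through Gi and Gq. Its signal was 2720, 2627 and 2502 on ADP arrays 1 to 3, against 2566, 2186 and 2747 on control arrays 1 to 3. The groups overlapped throughout. Its level averaged 2.35 ± 0.21 with ADP and 2.35 ± 0.13 in controls (SD, n = 3 each), and the difference was -0.0061 ± 0.14, with a 95% interval from -0.35 to 0.34 (limma, adjusted p = 0.990). The within-slide differences had opposite signs, 0.21 and -0.10.

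Rgs19, also called GAIP, acts on Gi alpha. Its signal was 15129, 17388 and 16474 on ADP arrays 1 to 3, against 14779, 14344 and 19499 on control arrays 1 to 3. The level averaged 4.99 ± 0.07 with ADP and 5.04 ± 0.10 in controls (SD, n = 3 each). The groups overlapped and the difference was -0.05 ± 0.11, with a 95% interval from -0.31 to 0.20 (limma, adjusted p = 0.866). Within the slides it was 0.07 and -0.20. The probe A_52_P555235 at chr2:181423447-181423506 differed by -0.20 ± 0.14 and the probe A_55_P2183692 at chr2:181423771-181423830 by -0.12 ± 0.13, both with overlapping groups. All 3 Rgs19 probes were therefore below 0 by less than 2 standard errors.

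**Figure D3:**
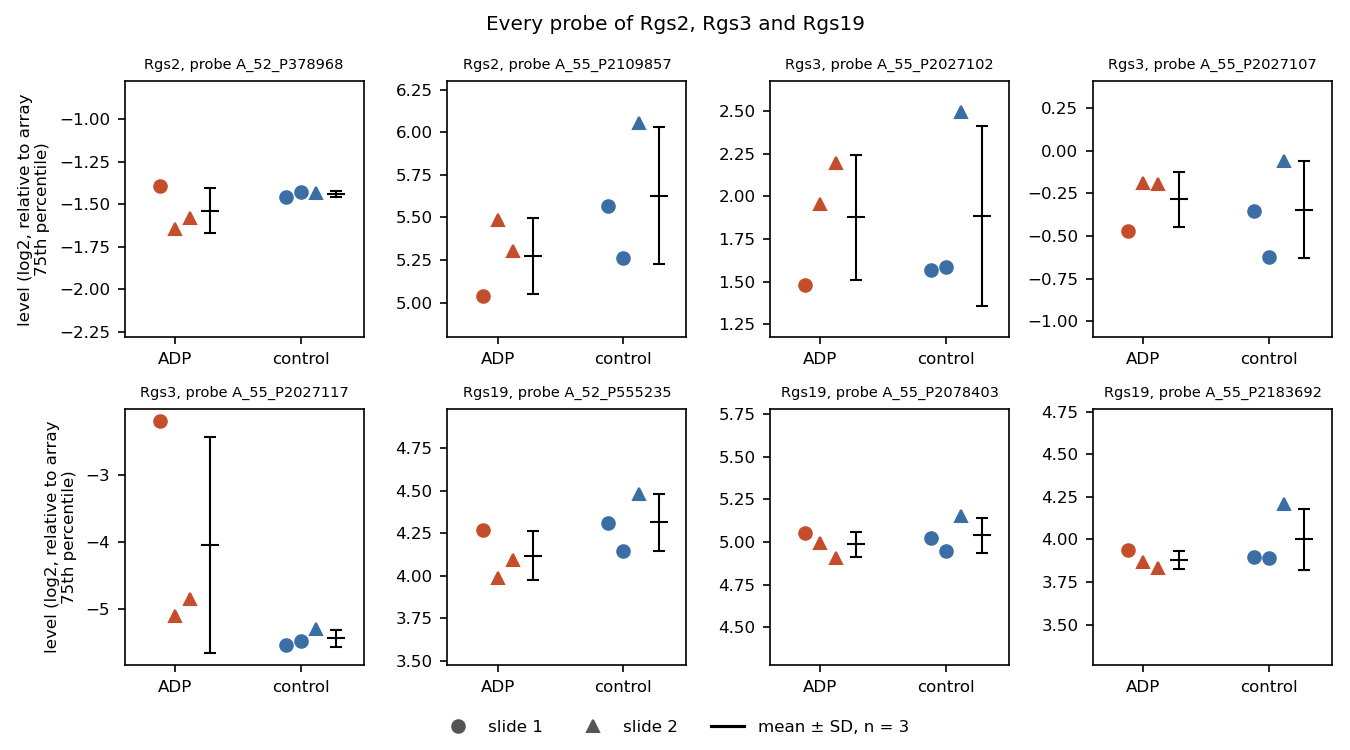
Level of every probe of Rgs2, Rgs3 and Rgs19 (y axis, log2 relative to the array's 75th percentile) on the 3 ADP arrays (left, orange) and 3 control arrays (right, blue), with circles for slide 1, triangles for slide 2 and the mean ± SD of each group (n = 3). The Rgs2 probe A_55_P2109857 differs by -0.35 and the other Rgs2 probe by -0.10, and the first of the Rgs3 probes parts the arrays by slide.

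Promoters of a pair of genes, Rgs2 and Rgs10, are shown for their contrast in letters. Both genes read lower within each slide, and so did Rgs3, whose promoter entries are not shown. RefSeq entries on build GRCm38.p6 were found for 5 of the 8 genes, with 8 entries in all, and the 250 bases before the start are used here. Capitals mark the letters TGACG (a cAMP response element half-site), GGGCGG (a GC box) and CCAAT, the letters of the box named after them, on either strand. The motifs do not overlap here. Of 32851 promoters of that length, 17.8% hold the half-site, 32.7% a GC box and 33.8% a CCAAT box, and the median GC content is 52.4%. The Rgs2 window, chr1:144004150-144004399 on the minus strand, and the Rgs10 window, chr7:128418173-128418422 on the minus strand, are as follows.
Rgs2: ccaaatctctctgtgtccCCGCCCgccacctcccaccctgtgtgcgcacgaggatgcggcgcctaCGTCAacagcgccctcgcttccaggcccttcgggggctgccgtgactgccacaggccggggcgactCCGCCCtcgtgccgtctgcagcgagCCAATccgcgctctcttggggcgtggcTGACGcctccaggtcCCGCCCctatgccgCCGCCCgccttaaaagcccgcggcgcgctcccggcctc
Rgs10: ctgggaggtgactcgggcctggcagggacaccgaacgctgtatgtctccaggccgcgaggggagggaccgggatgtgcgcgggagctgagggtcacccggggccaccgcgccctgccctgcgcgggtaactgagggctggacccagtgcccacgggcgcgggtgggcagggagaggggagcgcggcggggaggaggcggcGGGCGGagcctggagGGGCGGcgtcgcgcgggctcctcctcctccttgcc
The Rgs2 window holds TGACG at 67 bases before the start on the gene's strand and at 185 bases on the other strand, with 4 GC boxes, 1 CCAAT box and a GC content of 72.4%. The Rgs10 window holds 2 GC boxes, no half-site and no CCAAT box, with a GC content of 76.4%. Neither Rgs3 entry holds a half-site or a CCAAT box. They hold 0 and 1 GC boxes, with a GC content of 48.4% and 56.8%. A match describes these letters and is not a binding site.

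Of 13 other RGS genes on the array, 5 could be tested and 7 had no probe well above background on any array. None of the 5 passed the test. The one with the smallest p was Rgs9, an RGS protein known from retina and striatum that ends the light response in photoreceptors. Its signal was 178, 150 and 285 on ADP arrays 1 to 3, against 61.6, 80.5 and 29.5 on control arrays 1 to 3. Every ADP array was above every control array, beside 9.67% of all features that were higher without overlap. The control signals were low, where the lowest signals well above background were 16.6 to 20.8 on the control arrays. The difference was 1.82 ± 0.46 (limma, adjusted p = 0.261), with 1.35 and 2.81 within the slides and 2.08 with the slide as a block, and under normexp background correction it was 1.05. The value within slide 2 rests on 1 control array, control 3 at 29.5. With the slide as a block and trended, robust variances the adjusted p of Rgs9 in limma was 0.0239. In that fit 4.52% of all features were called higher.

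A second Rgs9 probe repeated the order of the groups, with a difference of 1.55 ± 0.52, but it is hardly an independent reading. The probes, at chr11:109086675-109086734 and chr11:109086669-109086728, share 54 of their 60 bases. Another Rgs9 probe, at chr11:109096382-109096441, was well above background on 2 of the 6 arrays and was not tested. Their first 30 bases are shown with the shared ones in capitals.
Rgs9, A_55_P1969032: aggcatGTGGGCCAGAAGATATCCCTTGCT
Rgs9, A_55_P2032232: GTGGGCCAGAAGATATCCCTTGCTgcctta
Rgs21 lies between Rgs1 and Rgs18 on chromosome 1, with its probe at chr1:146366820-146366879. It had signals of 39.2, 40.1 and 33.2 on ADP arrays 1 to 3, against 48.7, 45.8 and 47.3 on control arrays 1 to 3. These signals were near background, as those of Rgs16 were. The groups of Rgs21 did not overlap, beside 9.72% of all features that were lower without overlap. Its difference was -0.42 ± 0.16 (limma, adjusted p = 0.368).

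Rgs20 is named with a doubt that its probe shows. The probe that read it, at chr1:4900008-4900067, ends in 14 repeats of CT, and its last 30 bases are given with the repeat in capitals.
Rgs20: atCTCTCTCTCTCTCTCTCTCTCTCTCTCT
Its difference was -0.25 ± 0.36, while the partly overlapping Rgs20 probe at chr1:4900050-4900109, without the repeat in its first 30 bases, was well above background on none of the arrays. Rgs11 and Rgs12 differed by -0.04 ± 0.19 and -0.20 ± 0.16. A dimmer Rgs12 probe, A_55_P2078365, had signals of 28.8 to 37.0 with ADP against 34.3 to 52.0 in controls. In the fit over 26585 probes it differed by -0.50 ± 0.18. Its levels did not overlap, beside 9.72% of all features that were lower without overlap. Another Rgs12 probe was well above background on 2 of the 6 arrays and was not tested.

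The genes that act before and after RGS proteins did not pass the test either: 0 of 3 ADP receptors, 0 of 9 alpha subunits, 0 of 9 beta and gamma subunits, 0 of 7 receptor kinases and arrestins, 0 of 8 other regulators and 0 of 11 effectors were called on all arrays. All 3 ADP receptor genes were below 0, with a median of -0.48. Without a block P2ry13 had the smallest p of them, at signals of 235, 233 and 178 on ADP arrays 1 to 3, against 293, 232 and 383 on control arrays 1 to 3, and a difference of -0.55 ± 0.21 (limma, adjusted p = 0.360). P2ry12 differed by -0.48 ± 0.31 and P2ry1 by -0.02 ± 0.11. In the fit with the slide as a block, P2ry12 had the smallest p of the 3, at a difference of -0.73 ± 0.14 (limma, adjusted p = 0.0734).

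The slide block with trended, robust variances, which called 4 of the 8 RGS genes, also made calls in these lists at an adjusted p under 0.05, beside 5.38% lower and 4.52% higher of all features. Lower were 1 of 3 ADP receptors (P2ry12), 2 of 9 alpha subunits (Gna15 and Gnaq), 1 of 7 receptor kinases and arrestins (Arrb1), 1 of 8 other regulators (Akap13) and 4 of 11 effectors (Adcy7, Pik3cg, Pik3r5 and Plcb4). Higher was 1 of 11 effectors (Plcb1), and none of the 9 beta and gamma subunits was called. The adjusted p-values of these genes in that limma fit lay between 0.0209 for Adcy7 and 0.0477 for Pik3r5.

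Of the 9 alpha subunits tested, the substrates of RGS proteins and their relatives, 6 were below 0 and the median was -0.06. Gna15, a Gq-class subunit of blood cells, had signals of 232, 230 and 189 on ADP arrays 1 to 3, against 344, 297 and 389 on control arrays 1 to 3. Its groups did not overlap, beside 9.72% of all features that were lower without overlap. It differed by -0.74 ± 0.17 (limma, adjusted p = 0.261). Among 9 beta and gamma subunits, 8 were below 0 with a median of -0.09. Gnb5, the beta subunit that binds the RGS proteins of the Rgs9 class, differed by -0.65 ± 0.24 (limma, adjusted p = 0.336), with overlapping groups.

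Of the 11 effectors, 9 were below 0, the median was -0.21, and 4 were lower and 1 higher at an unadjusted p under 0.05, beside 6.18% lower and 6.55% higher of all features. In the fit with the slide as a block, 7 were lower and 1 higher at that threshold, beside 13.5% and 10.8% of all features. Pik3cg, the catalytic subunit of the phosphoinositide 3-kinase that beta-gamma activates, had signals of 717, 1102 and 955 on ADP arrays 1 to 3, against 1270, 1042 and 1414 on control arrays 1 to 3. It differed by -0.51 ± 0.14 (limma, adjusted p = 0.273). Its levels did not overlap, beside 9.72% of all features that were lower without overlap. Plcb1, the one higher effector and a phospholipase C that Gq activates, differed by 0.97 ± 0.38 (limma, adjusted p = 0.375). Among receptor kinases and arrestins Grk5 had the smallest p and differed by 0.27 ± 0.13 (limma, adjusted p = 0.490), and among other regulators Akap13 differed by -0.29 ± 0.11 (limma, adjusted p = 0.360). The lists had medians of -0.13 each, beside -0.18 for the 8 RGS genes.

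**Figure D4:**
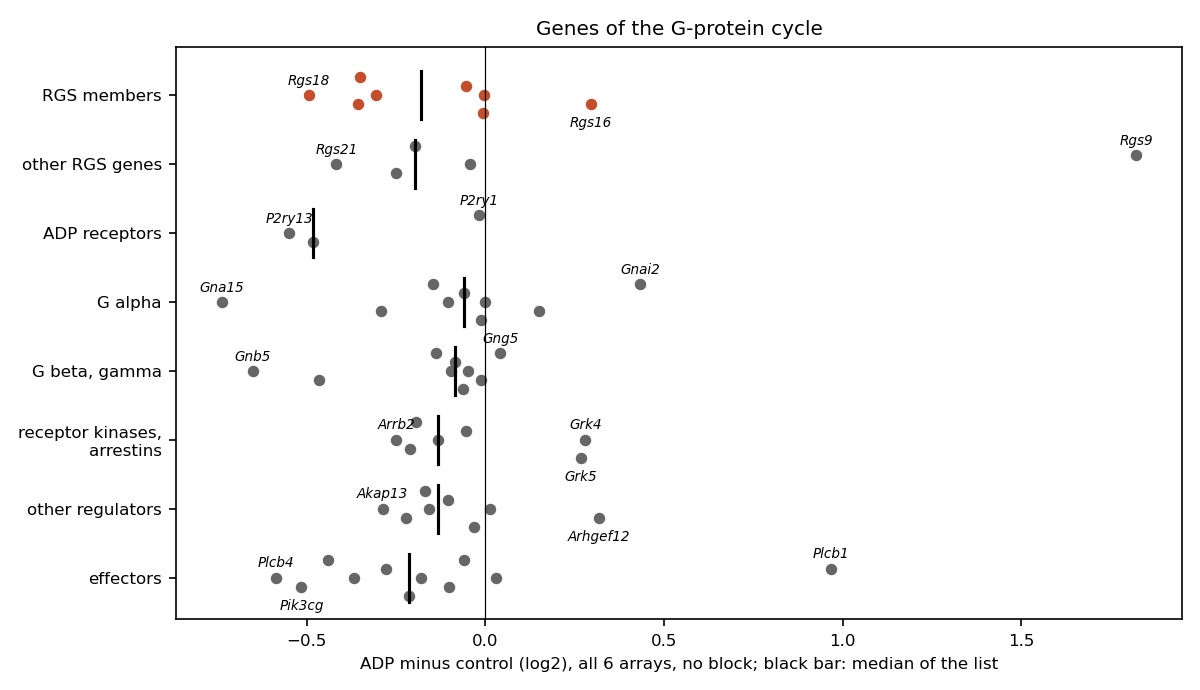
ADP minus control difference (x axis, log2, all 6 arrays without a block) of every tested gene of the G-protein cycle, 1 point a gene, in rows by role, with a black bar at the median of each row; points are offset up or down only to keep them apart. The 8 RGS genes (orange) run from -0.49 for Rgs18 to 0.30 for Rgs16, and Rgs9 stands apart at 1.82.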

How the data were processed

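RNA of 6 macrophage cultures was hybridised to one-colour Agilent arrays, 1 array per sample, and the titles gave the group and replicate number. The deposited values are spot intensities with the background already subtracted within the array, per the file headers, and the submitters' processing notes name Agilent Feature Extraction 10.7.1.1. They are not scaled between arrays. A deposited value table held the same signal, within 0.001 log2 of the processed signal for 100% of 55681 probes, and no other per-sample columns.

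Here log2 of the deposited processed signal was taken relative to each array's 75th percentile. Spots flagged as outliers were left out, and spots of a probe were averaged. A probe was kept (26585 were) if 1 group or both had it well above background on all 3 arrays, and a gene was its probe with the highest mean. Of the 13 probes of the 8 RGS genes, 12 passed. Groups were compared with limma 3.58.1 in R 4.3.3 (lmFit and eBayes, two-sided, no block), with Benjamini-Hochberg adjustment over 19573 features and a threshold of 0.05. An exact permutation of 3 against 3 arrays cannot go below p = 0.1, and the number of arrays limits the precision. Genes were named through a RefSeq table of GRCm38.p6, all 8 by accession.

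The 8 genes and the gene lists were chosen with earlier results of these data known. Named by rule were the 8 genes in full, the gene with the smallest p of each other list of the G-protein cycle (no block), and the 5 genes most like the member with the smallest p. Other genes were named after their values were seen: Rgs11, Rgs12, Rgs20 and Rgs21, P2ry1 and P2ry12, Plcb1, the genes of the other lists called with the slide as a block, and the platelet markers. The alternatives tried were normexp correction (offset 50), quantile, median and no scaling, other filters and probe rules, the slide or the replicate number as a block, trended and robust variances, and leaving out each array. The fit was tested on simulated data.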

Additional observations from a re-analysis of the deposited data

How the results depend on the processing

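The count of features past an adjusted p under 0.05 was 0 on all arrays and under every alternative run (limma, with 1163 to 4758 features at an unadjusted p under 0.05) except the slide block with trended, robust variances, which called 1939 features and 4 of the 8 RGS genes. Rgs2, Rgs10, Rgs14 and Rgs18 were below 0 under all alternatives. The median of the 8 genes was -0.33 with the slide as a block and ranged from -0.34 without ADP 3 to -0.05 without control 3. Rgs1, close to 0, turned to 0.020 under normexp background correction, 0.071 unscaled, 6.6e-05 under quantile normalization and 0.059 with the slide as a block, with or without trended variances, and ranged from -0.12 to 0.073 when 1 array was left out. Rgs3 turned to 0.0063 under quantile normalization, 0.073 unscaled and 0.028 as a mean of probes, and ranged from -0.16 to 0.30 when 1 array was left out. Rgs19 turned to 0.023 unscaled and ranged from -0.10 to 0.00079, and Rgs16 ranged from -0.44 without ADP 3 to 0.88 without ADP 2. The cause was not tested. The deviations of same-numbered arrays had r = 0.42, -0.40 and 0.43, but pairs 1 and 3 share a slide and pair 2 does not. Every ADP and control array on the same slide had r from 0.42 to 0.47, and all on different slides had a negative r. These values hold the slide, so they cannot tell whether the replicate number of the titles pairs the samples. With the replicate number as a block, 0 features were called and 2494 had an unadjusted p under 0.05 (limma). Rgs16, near background, had a difference of 0.22 under normexp background correction, and signal over background limits its precision.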
